A study of Bos taurus with 9 samples.

Results

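The genes described here are 10 members of the TGF-beta and activin pathway, measured by RNA-seq in bovine uterine gland fragments in 3D culture. They were chosen by name from the 20679 genes listed in the count and TPM tables (TPM is a count scaled to transcript length and library total), and all 10 were present. They comprise the activin and inhibin beta subunits INHBA and INHBB, the ligands TGFB1, TGFB2 and TGFB3, the receptors TGFBR1, TGFBR2 and TGFBR3, the secreted activin-binding protein FST (follistatin) and the intracellular inhibitor SMAD7. Fragments were isolated from abattoir uteri in the luteal phase and kept for 5 days in Matrigel, a basement membrane gel of the growth factor-reduced grade, in DMEM/F12 with BSA, ascorbic acid, transferrin, selenite and insulin. Without EGF the fragments formed cysts (CYST, labelled Control). With EGF they formed tubular uterine gland-like structures, either in Matrigel alone (MAT) or in Matrigel with type I collagen (MAT + COL). The labels name EGF and collagen without an amount, whereas the methods give 5 ng/ml for EGF and 0.5 mg/ml for the collagen. Each group had 3 libraries numbered 1 to 3 in the sample titles, whereas the library names carry other numbers (1, 2 and 4 for CYST, 1, 3 and 7 for MAT, 2, 4 and 8 for MAT + COL). The labels do not say whether a number stands for an animal, although the study's text speaks of individuals for MAT and MAT + COL, so p-values measure the spread between these samples, which may be technical.

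TGF-beta ligands bind a type II receptor (TGFBR2), which then activates a type I receptor (TGFBR1), and the complex phosphorylates SMAD2 and SMAD3. Activins, which are dimers of the beta subunits encoded by INHBA and INHBB, use activin receptors to reach the same SMADs. TGFBR3 (betaglycan) is a co-receptor that presents TGFB2 to its receptors and also binds inhibin. Follistatin traps activin outside the cell, and SMAD7 blocks the activated type I receptor inside it. In the uterus these factors are known for roles in the growth and remodelling of the endometrium.

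The deposited counts totalled 6568968 to 17948600 reads per library, and each MAT + COL library had at least 16665013. Epithelial transcripts fitted the labelled cell type: the summed TPM of 10 epithelial markers was 17863 to 19325 in CYST, 28691 to 44557 in MAT and 29731 to 39623 in MAT + COL, although the gland factor SOX17 was under 1 TPM in every library. Most of the sum was KRT8 (means of 8314, 15490 and 14871 TPM in CYST, MAT and MAT + COL) and KRT19 (7751, 17274 and 16472). Of 9 epithelial markers tested in MAT against CYST, 7 had a positive log2 difference and 2 a negative one. CLDN4 and PAX8 had lower means in MAT (709 and 36.8 TPM) than in CYST (852 and 45.0). Stromal transcripts were also present, with 10 fibroblast markers summing to 2259 to 4879 TPM in CYST, 1208 to 3798 in MAT and 2231 to 4315 in MAT + COL, highest in replicate 3 of each group. The 6 smooth muscle and pericyte markers summed to 119 to 171 TPM in CYST, 38.1 to 87.5 in MAT and 67.3 to 87.3 in MAT + COL. Among them MYH11 was not lower with EGF, at means of 7.74, 7.98 and 8.94 TPM in CYST, MAT and MAT + COL. Endothelial markers (7 genes) summed to 8.67 to 46.7 TPM over the 9 libraries, immune markers (8 genes) to 20.1 to 48.6, and ciliated cell markers (4 genes) to 22.4 to 58.3. Of the immune markers, CD14 was present at a mean of 21.0, 25.8 and 23.2 TPM in CYST, MAT and MAT + COL and CD68 at 7.85, 3.48 and 5.30 TPM. The other immune markers were low. In the same order, the means were 0.69, 0.38 and 0.32 TPM for PTPRC, 1.27, 0.28 and 1.06 for CSF1R and 2.23, 0.40 and 1.78 for NKG7. The lymphocyte markers CD3E and CD79A and the myeloid marker LYZ were under 1 TPM in every library. The epithelial sums were higher and the smooth muscle sums lower in all EGF libraries than in all CYST libraries, and the fibroblast sums were lower with EGF in all 3 same-numbered pairs of both comparisons although the groups overlapped. Their part in the results that follow was not tested. In bulk libraries, fewer cells of a type and less RNA per cell cannot be told apart.

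In TPM, which corrects for transcript length and so allows levels of different genes to be set side by side, INHBA was the highest of the 10 genes in every library (71.0 to 575 TPM). TGFBR1 (26.0 to 53.3 TPM) and TGFB2 (19.1 to 33.6 TPM) came next. Their ranges overlapped, but within each of the 9 libraries TGFBR1 was the higher of the pair. SMAD7 (2.04 to 6.85 TPM), INHBB (2.15 to 19.7 TPM), TGFBR3 (0.61 to 14.8 TPM) and TGFBR2 (1.12 to 4.36 TPM) had overlapping ranges and no fixed order. TGFB1 (0.33 to 1.02 TPM) and TGFB3 (0 to 2.05 TPM) were near the limit of detection, and FST ranged from 0 to 20.5 TPM. By mean TPM, INHBA ranked 278 among all genes in CYST, 1669 in MAT and 1392 in MAT + COL.

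**Figure D1:**
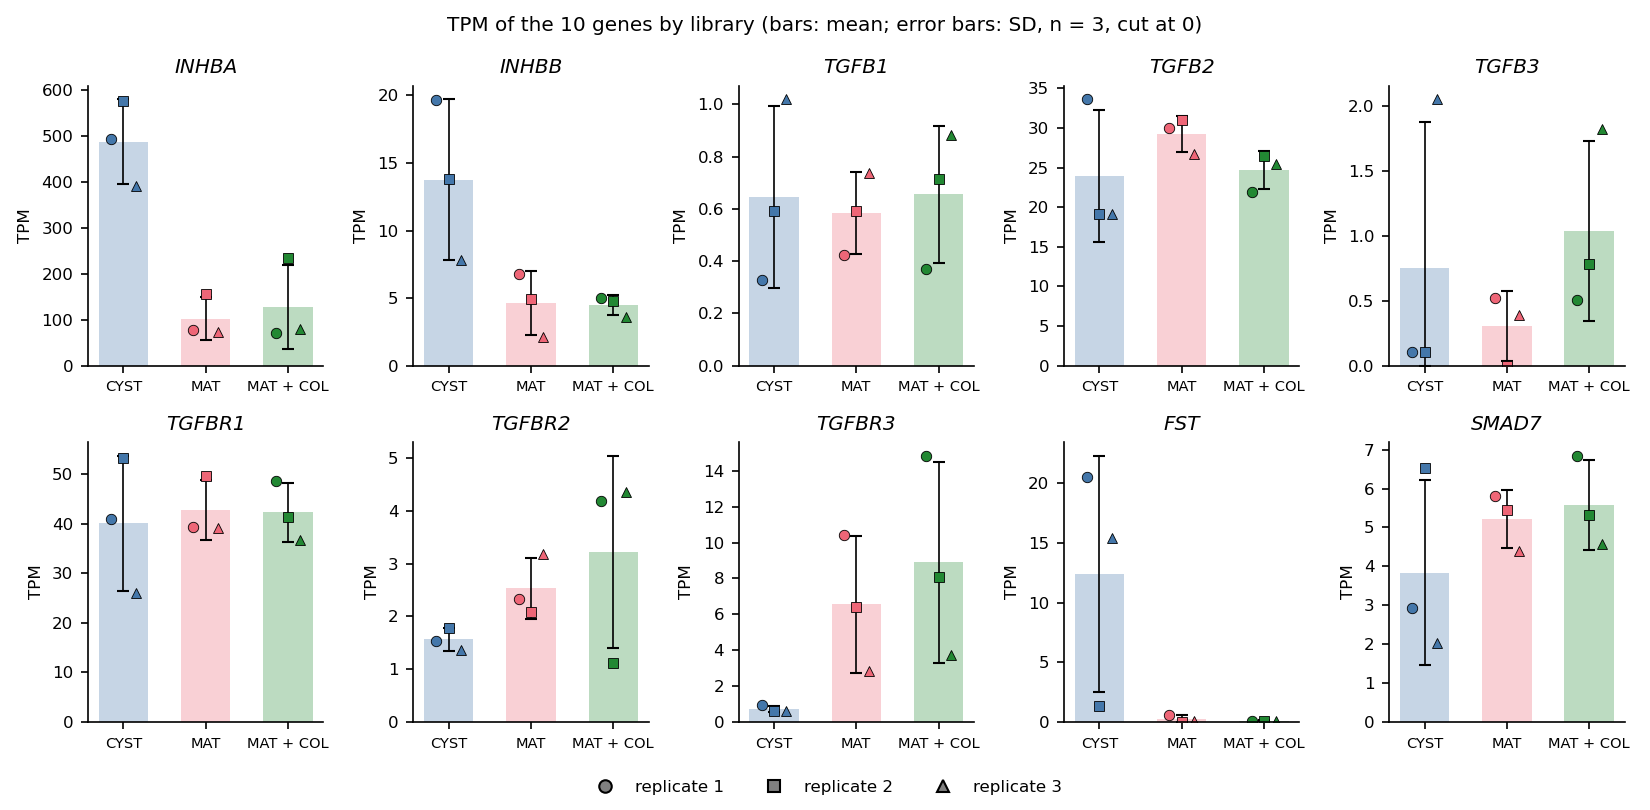
TPM of each of the 10 genes (vertical axes, each with its own scale from 0) in the 3 libraries of CYST, MAT and MAT + COL; symbols are libraries by replicate number, bars are means and error bars are SD (n = 3), cut at 0. INHBA, INHBB and FST stand higher in every CYST library than in any EGF library, TGFBR3 stands lower in CYST, and the groups overlap for TGFB1, TGFB3, TGFBR1 and SMAD7.

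Differences were tested on counts with edgeR's quasi-likelihood test over all genes that passed a filter on low counts, with Benjamini-Hochberg adjustment, and a gene was called at an adjusted p under 0.05. A second fit added the replicate number as a block, since same-numbered libraries deviated together. For MAT against CYST, 8 of the 10 genes could be tested, because TGFB1 and TGFB3 had too few counts. Without the block 2 of them were called, INHBA and TGFBR3, where 1.79% of the 12074 genes tested were called. With the block 4 were called, INHBA, INHBB, FST and TGFBR3, where 10.6% of all genes were called. The TPM of the groups did not overlap for 5 genes, INHBA, INHBB and FST lower and TGFBR3 and TGFBR2 higher with EGF, beside 23.7% of all genes. MAT + COL against CYST shares the CYST libraries, so it is not a separate repeat of the comparison. There all 10 genes were tested, 2 were called without the block (TGFBR3 and FST, background 1.49%) and 4 with it (INHBA, INHBB, FST and TGFBR3, background 5.26%), and the TPM did not overlap for 4 genes (background 24.7%).

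INHBA (ENSBTAG00000056438, assembly ARS-UCD2.0, chromosome 4, 79279909 to 79299992) encodes the subunit of activin A. It stood at 493, 575 and 391 TPM in CYST replicates 1 to 3, at 76.9, 156 and 73.7 TPM in MAT and at 71.0, 233 and 80.3 TPM in MAT + COL. All 3 CYST libraries were above all 6 EGF libraries, and replicate 2 was the highest library of each group. The means were 486 ± 92.3 TPM in CYST, 102 ± 46.9 in MAT and 128 ± 91.2 in MAT + COL (SD, n = 3). In MAT against CYST, INHBA fell by 2.25 on the log2 scale (SE 0.31), 4.75-fold, with an edgeR adjusted p of 0.0256 (0.00243 in the blocked fit). Within replicate numbers 1, 2 and 3 the CYST library held 6.43, 3.66 and 5.70 times the reads per library total of its MAT partner. With collagen present the difference from CYST was -1.97 (SE 0.46, edgeR adjusted p = 0.0705), and with the block INHBA fell by 2.20 (SE 0.33, edgeR adjusted p = 0.0286).

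INHBB (ENSBTAG00000049058, chromosome 2, 72106528 to 72113653), which encodes the subunit of activin B, was lower with EGF in the same libraries but at a far smaller level. It stood at 19.7, 13.8 and 7.80 TPM in CYST, 6.80, 4.97 and 2.15 TPM in MAT, and 5.00, 4.76 and 3.64 TPM in MAT + COL. The groups did not overlap but came close, at CYST replicate 3 and MAT replicate 1. The log2 difference of MAT from CYST was -1.57 (SE 0.46, edgeR adjusted p = 0.108), and with the block INHBB fell by 1.62 (SE 0.27, edgeR adjusted p = 0.0152). For MAT + COL the corresponding values were -1.66 (SE 0.32, edgeR adjusted p = 0.0550) and, with the block, -1.61 (SE 0.27, edgeR adjusted p = 0.0336). INHBA made up 91.9% to 98.0% of the summed INHBA and INHBB TPM in the 9 libraries. Its mean share was 97.3% ± 0.994 in CYST and 95.3% ± 2.99 in MAT (SD, n = 3, two-sided exact permutation p = 0.4, where 3 against 3 allows no p below 0.1). INHA, which encodes the alpha subunit needed to form inhibin in place of activin, had at most 0.225 TPM in any library and was not tested.

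FST (ENSBTAG00000003329, chromosome 20, 25580621 to 25586636) was present in CYST and nearly absent with EGF. CYST held 20.5, 1.35 and 15.4 TPM, from 180, 23 and 174 reads. MAT held 0.58, 0 and 0.07 TPM, from 4, 0 and 1 reads, and MAT + COL held 0.11, 0.05 and 0.12 TPM, from 2, 1 and 2 reads. Every CYST library was above every EGF library, and CYST replicate 2 was far below the other CYST libraries, which gave a mean of 12.4 ± 9.91 TPM (SD, n = 3). Over the 3 libraries of each group, FST took 80.2 times more reads per library total in CYST than in MAT (exact 95% interval for counting error, 34.1 to 248) and 112 times more than in MAT + COL (47.7 to 348). In pair 1 the ratio of CYST to MAT was 35.1 (13.5 to 130). In pair 2 MAT had no read, so the exact interval has only a lower limit, 6.13. With 3 reads taken as the floor for MAT, the ratio of pair 2 was 8.17. Pair 3, with a single MAT read, gave a ratio of 226 (40.0 to 8980). The edgeR log2 difference of MAT from CYST was -6.32 (SE 1.41, adjusted p = 0.0621), and with the block FST fell by 6.18 (SE 0.67, adjusted p = 0.00434). Against CYST, FST in MAT + COL fell by 7.02 (SE 1.18, edgeR adjusted p = 0.0416) and by 6.86 with the block (SE 0.63, edgeR adjusted p = 0.0157).

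INHBA and its binding protein were also set against each other within each library. The ratio of INHBA to FST TPM was 24.1, 427 and 25.4 in CYST. With EGF it rests on 0 to 4 FST reads per library, so FST was held at no fewer than 3 reads, which gave 131, 951 and 336 in MAT and 417, 1416 and 459 in MAT + COL. CYST replicate 2 overlapped both EGF groups, and the ratio was higher with EGF in all 3 same-numbered pairs of both comparisons, where 3 pairs allow no exact p below 0.25. The log2 ratio with 0.1 TPM added to each gene, with which all groups overlapped, differed by 2.76 between MAT and CYST (two-sided exact permutation p = 0.2, without the pairs) and by 3.20 between MAT + COL and CYST (exact permutation p = 0.3). With EGF, FST stood at 0 to 0.58 TPM, so the added 0.1 TPM lowers these differences. On counts with 0.1 added they were 4.55 and 4.17. As 3 against 3 allows no p below 0.1, a difference in proportion was neither shown nor excluded.

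**Figure D2:**
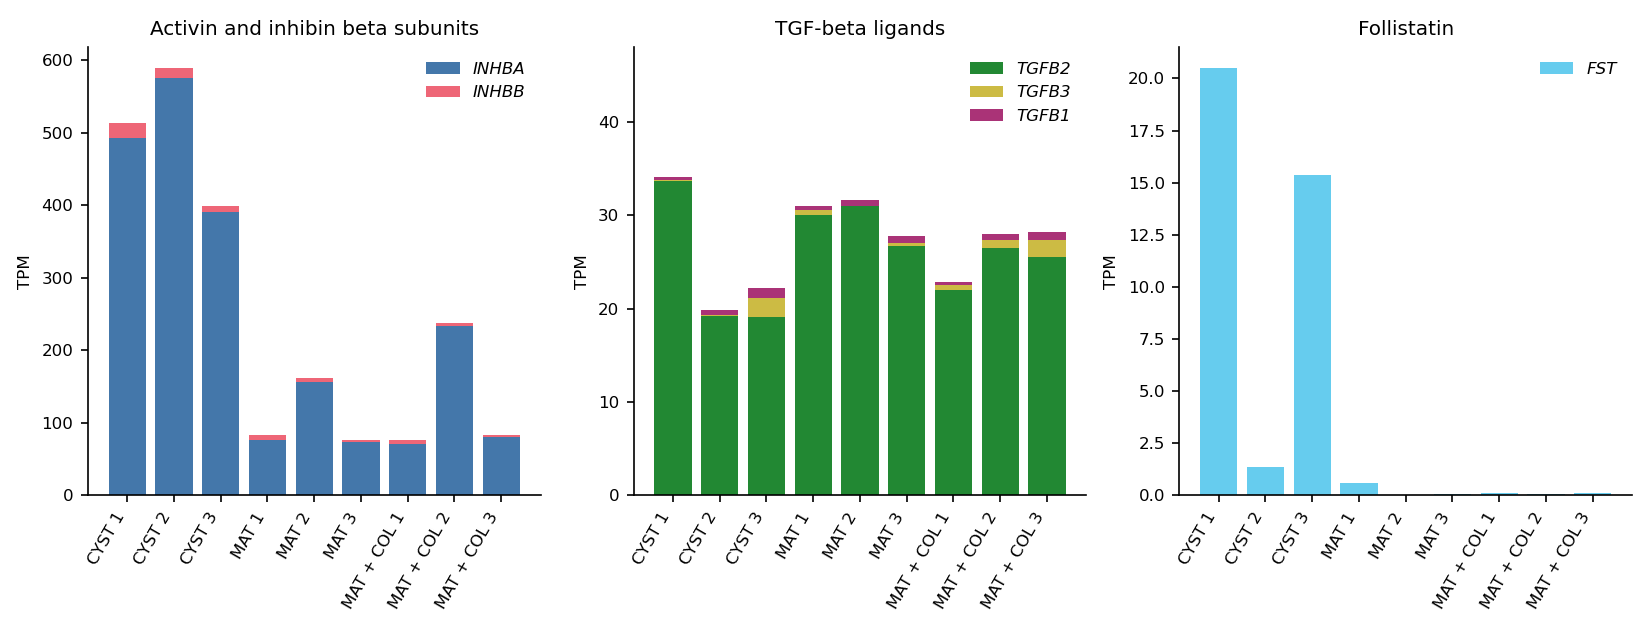
TPM in each library of the beta subunits INHBA and INHBB (left, stacked), of the ligands TGFB2, TGFB3 and TGFB1 (middle, stacked) and of FST (right); horizontal axes give the group and replicate number. INHBA is at 391 to 575 TPM in CYST and at most 233 TPM with EGF, TGFB2 stays between 19.1 and 33.6 TPM, and FST is visible only in CYST (1.35 to 20.5 TPM) and, at 0.58 TPM, in MAT replicate 1.

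Of the TGF-beta ligands, TGFB2 (ENSBTAG00000005359, chromosome 16, 21807741 to 21902399) supplied nearly all transcripts, 86.2% to 98.7% of the summed TPM of TGFB1, TGFB2 and TGFB3 in the 9 libraries. It stood at 33.6, 19.2 and 19.1 TPM in CYST, 30.1, 31.0 and 26.7 TPM in MAT and 22.0, 26.5 and 25.5 TPM in MAT + COL. CYST replicate 1 was the highest library of all and the other CYST libraries were the lowest, so the groups overlapped. The log2 difference of MAT from CYST was 0.28 (95% confidence interval -0.28 to 0.85, edgeR adjusted p = 0.562), and that of MAT + COL from CYST was -0.0068 (-0.60 to 0.59, edgeR adjusted p = 0.991).

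TGFB1 (ENSBTAG00000020457, chromosome 18, 50483511 to 50508088) was listed at 0.33, 0.59 and 1.02 TPM in CYST, 0.42, 0.59 and 0.74 TPM in MAT and 0.37, 0.71 and 0.88 TPM in MAT + COL. Replicate 3 was the highest library of each group, and no library had more than 21 reads. TGFB1 overlaps CCDC97 on the other strand, and the strand setting of the counting is not given in the sources used here, so reads of the overlap are uncertain. TGFB3 (ENSBTAG00000012004, chromosome 10, 87237856 to 87262025) had 1, 2 and 26 reads in CYST, 4, 0 and 6 in MAT and 10, 16 and 35 in MAT + COL. Replicate 3 was the highest library of CYST and MAT + COL, at 2.05 and 1.82 TPM, and also had the highest summed fibroblast markers of its group. Neither ligand was called in MAT + COL against CYST, with log2 differences of -0.079 (95% confidence interval -1.81 to 1.65) for TGFB1 and 0.30 (-2.59 to 3.18) for TGFB3, which was 1.23 with the block (-1.05 to 3.52, edgeR adjusted p = 0.454). A change of several fold lies within these intervals and was not detectable at this depth.

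Among the receptors, TGFBR3 was the member that rose. TGFBR3 (ENSBTAG00000024269, chromosome 3, 51501852 to 51711170) stood at 0.92, 0.61 and 0.61 TPM in CYST, 10.4, 6.42 and 2.81 TPM in MAT and 14.8, 8.07 and 3.74 TPM in MAT + COL. The lowest EGF library was above the highest CYST library, and in both EGF groups replicate 1 was the highest and replicate 3 the lowest. TGFBR3 rose by 3.18 on the log2 scale in MAT against CYST (SE 0.51, 9.03-fold, edgeR adjusted p = 0.0349) and by 3.05 with the block (SE 0.40, edgeR adjusted p = 0.00756). In MAT + COL it rose by 3.54 (SE 0.50, 11.6-fold, edgeR adjusted p = 0.0308) and by 3.41 with the block (SE 0.38, edgeR adjusted p = 0.0163). Within replicate numbers 1, 2 and 3, reads per library total were 11.3, 10.6 and 4.27 times higher in MAT than in CYST and 15.3, 13.2 and 5.53 times higher in MAT + COL. Replicate 3, with the smallest ratio, had 24 reads in CYST and 133 in MAT.

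TGFBR1 (ENSBTAG00000018035, chromosome 8, 64107438 to 64182901), the type I receptor of TGF-beta, was measured with high counts (742 to 2511 reads per library) and showed no called difference. It stood at 40.9, 53.3 and 26.0 TPM in CYST, 39.3, 49.7 and 39.2 TPM in MAT and 48.7, 41.4 and 36.8 TPM in MAT + COL. The EGF libraries lay within the CYST range. The gene overlaps another annotated gene, ENSBTAG00000047836, so reads of the overlap are uncertain. The log2 difference was 0.11 for MAT (95% confidence interval -0.38 to 0.61, edgeR adjusted p = 0.817) and 0.035 for MAT + COL (-0.44 to 0.51, edgeR adjusted p = 0.944) against CYST.

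The type II receptor TGFBR2 (ENSBTAG00000019832, chromosome 22, 5091591 to 5183886) was far lower than TGFBR1. It stood at 1.53, 1.78 and 1.37 TPM in CYST, 2.34, 2.08 and 3.17 TPM in MAT and 4.19, 1.12 and 4.36 TPM in MAT + COL. All MAT libraries were above all CYST libraries, whereas MAT + COL replicate 2 was the lowest of the 9. The log2 difference of MAT from CYST was 0.70 (SE 0.41, edgeR adjusted p = 0.384; with the block 0.66, edgeR adjusted p = 0.360), and that of MAT + COL was 0.99 (SE 0.55, edgeR adjusted p = 0.342). TGFBR2 made up 2.65% to 10.6% of the summed TGFBR1 and TGFBR2 TPM over the libraries. Its mean share was 3.94% ± 0.918 in CYST, 5.71% ± 1.74 in MAT and 7.06% ± 4.05 in MAT + COL (SD, n = 3), and the differences from CYST did not pass the test (two-sided exact permutation p = 0.2 and 0.4).

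SMAD7 (ENSBTAG00000012441, chromosome 24, 48599168 to 48627609), itself induced by SMAD signalling in many cells, stood at 2.94, 6.54 and 2.04 TPM in CYST, 5.80, 5.46 and 4.38 TPM in MAT and 6.85, 5.32 and 4.57 TPM in MAT + COL. CYST replicate 2 reached the level of the EGF libraries and the other CYST libraries were below all of them. The log2 difference was 0.46 for MAT (95% confidence interval -0.61 to 1.54, edgeR adjusted p = 0.625) and 0.50 for MAT + COL (-0.55 to 1.55, edgeR adjusted p = 0.569) against CYST.

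**Figure D3:**
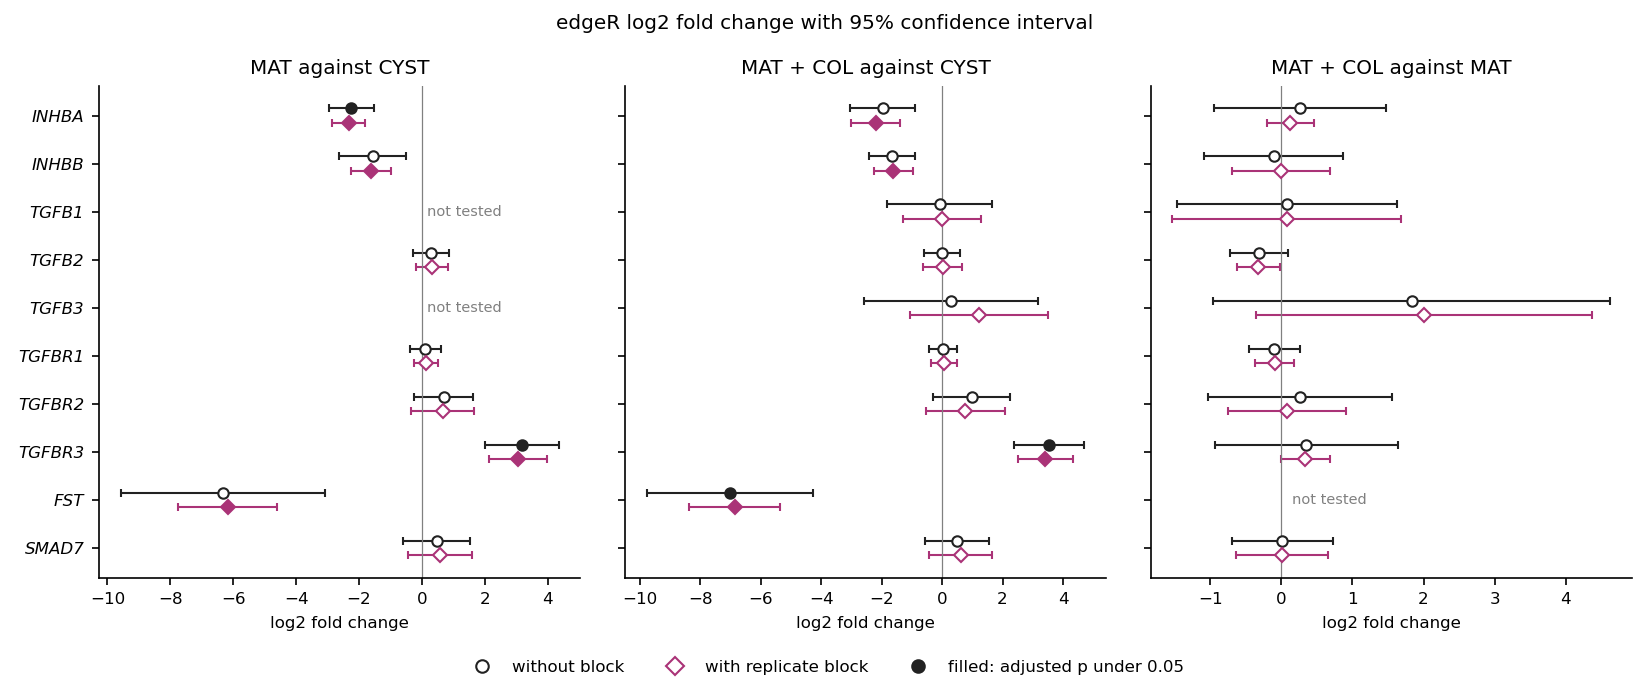
Log2 fold change of the 10 genes in the 3 comparisons (horizontal axes, the first-named group over the second; points are edgeR estimates without and with the replicate block, bars are 95% confidence intervals, filled symbols have an adjusted p under 0.05). INHBA (-2.25), INHBB (-1.57) and FST (-6.32) lie below 0 and TGFBR3 (3.18) above 0 in MAT against CYST, as they do in MAT + COL against CYST, and no symbol is filled in MAT + COL against MAT.

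The calls depended on single libraries, over all genes as for the members. When each library was left out in turn of MAT against CYST, INHBA ranged from -2.68 to -2.03, TGFBR3 from 2.73 to 3.53, INHBB from -1.87 to -1.23 and FST from -8.23 to -5.50. Without the block neither INHBA nor TGFBR3 was called after CYST replicate 1, CYST replicate 2 or MAT replicate 1 was left out, and TGFBR3 was also lost without CYST replicate 3 (edgeR adjusted p = 0.0516) or MAT replicate 2 (0.0762). Over all genes the calls went from 216 to 7, 5 and 9 without CYST replicate 1, CYST replicate 2 and MAT replicate 1. They went to 267 without CYST replicate 3 and to 32 without MAT replicate 2. For MAT + COL against CYST, FST kept its call only without CYST replicate 2 and TGFBR3 only without MAT + COL replicate 3, while INHBB gained one without CYST replicate 3 (edgeR adjusted p = 0.0498) and INHBA without MAT + COL replicate 2 (0.0494). With the block, no member was called in MAT against CYST without replicate 1, where the edgeR adjusted p was 0.0521 for INHBA, 0.0513 for FST, 0.10 for TGFBR3 and 0.130 for INHBB, and all 4 were called without replicate 2 or replicate 3. The blocked fit of MAT + COL against CYST differed: FST and TGFBR3 kept their calls whichever replicate number was left out, INHBA lost its call without replicate 1 (edgeR adjusted p = 0.0577) and INHBB without replicate 1 or 2 (0.131 and 0.134).

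Collagen I in the gel, compared at the same EGF condition, was not followed by a called change in any member. In MAT + COL against MAT, 9 of the 10 genes were tested (FST had too few reads), and edgeR called 0 of them, with 0.0% of 12470 genes called. At an unadjusted p under 0.05 edgeR found 51 genes (0.409%) without the block, none of them a member, and 618 (4.96%) with it, TGFB2 among them. The share without the block is far below the threshold itself, so the absence of members from it says little. DESeq2 and limma also called 0 genes. The log2 difference was 0.26 for INHBA (95% confidence interval -0.95 to 1.47), -0.11 for INHBB (-1.08 to 0.87), 0.35 for TGFBR3 (-0.93 to 1.64), 0.26 for TGFBR2 (-1.03 to 1.56), -0.10 for TGFBR1 (-0.45 to 0.26) and 0.017 for SMAD7 (-0.70 to 0.73). Each of these intervals, from the fit without the block, covers 0, and of these 6 those of TGFBR1 and SMAD7 lie within a change of 1 in either direction. With the block the intervals of all 6 cover 0 and lie within a change of 1. They were -0.21 to 0.47 for INHBA, -0.70 to 0.68 for INHBB and -0.75 to 0.90 for TGFBR2. TGFBR3 was higher in MAT + COL in all 3 pairs, by 0.34 with the block (-0.011 to 0.69, edgeR adjusted p = 0.955). TGFB2 was the 1 member whose TPM did not overlap between the groups (background 3.57%), lower with collagen by a log2 difference of -0.31 (-0.72 to 0.090, edgeR adjusted p = 1.0). With the block the TGFB2 difference was -0.32 (-0.62 to -0.019), with an unadjusted edgeR p of 0.0392 and an adjusted p of 0.955. TGFB1 differed by 0.081 (-1.47 to 1.63) and TGFB3 by 1.83 (-0.96 to 4.62).

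The other genes of the pathway were taken from 7 lists by role. Without the block, the edgeR fit on the 6 libraries of a comparison called no listed gene beyond the members, while DESeq2 called 6 in MAT and 5 in MAT + COL against CYST. With the block edgeR called 10 of the 64 tested (15.6%, against 10.6% of all genes) in MAT against CYST, 6 higher and 4 lower. In MAT + COL against CYST it called 3 of 64 (4.69%, against 5.26% of all genes). Without replicate 1, 2 or 3 the blocked fit called 0, 6 and 12 listed genes in MAT, where the calls over all genes went from 1277 to 36, 614 and 1867. The corresponding numbers in MAT + COL were 0, 1 and 14 listed genes and, from 658, 126, 109 and 2406 of all genes. In the lists that follow, called shares stand against the same 10.6% of all genes in MAT against CYST. Of the 12 ligands, 5 were tested there, with 1 called higher and 2 lower, the 2 lower being members, and a median log2 difference of -0.25, beside 0.0050 for all genes. The ligand that rose was MSTN (myostatin, which signals through activin type II receptors), from 18.8, 19.2 and 6.14 TPM in CYST to 40.8, 63.9 and 10.2 TPM in MAT and 64.8, 65.1 and 14.5 TPM in MAT + COL. The groups overlapped through the low replicate 3, but MSTN was higher with EGF in each pair, by 1.21 in MAT (SE 0.27, edgeR with the block, adjusted p = 0.0345) and 1.54 in MAT + COL (SE 0.22, adjusted p = 0.0251). Without the block its differences were 1.41 (edgeR adjusted p = 0.245) and 1.66 (0.153).

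Of 8 receptors in the files, 7 were tested, and TGFBR3 was the 1 called, in both comparisons with CYST. The activin type II receptor ACVR2A was measured at 7.88 to 15.1 TPM over the libraries, whereas the type I receptor ACVR1B (0.39 to 1.83 TPM) and the type II receptor ACVR2B (0.25 to 0.94 TPM) were low. ENG (endoglin, a co-receptor of endothelial and stromal cells) was lower in MAT by -1.21 (edgeR adjusted p = 0.195; with the block -1.24, edgeR adjusted p = 0.0717), which did not pass the test.

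Secreted TGF-beta is held in a latent complex, and integrins that contain the alpha-v chain release it. Of 11 genes of this latency and activation list, 9 were tested and 2 rose in MAT against CYST with the block (background 10.6%). ITGB6, the beta chain of integrin alpha-v beta-6, was measured at 47.4, 154 and 79.6 TPM in CYST, 213, 367 and 285 TPM in MAT and 290, 352 and 298 TPM in MAT + COL, with no overlap between CYST and the EGF libraries. ITGB6 rose by 1.74 in MAT (SE 0.20, edgeR with the block, adjusted p = 0.00534; 1.63 and 0.0766 without it) and by 1.83 in MAT + COL (SE 0.26, adjusted p = 0.0251; 1.70 and 0.0685 without it). Its partner ITGAV rose by 1.11 in MAT (SE 0.16, edgeR with the block, adjusted p = 0.00957; 1.12 and 0.0805 without it), from 32.5 to 67.5 TPM in CYST to 76.3 to 146 TPM. In MAT + COL, ITGAV differed by 0.64 (edgeR with the block, adjusted p = 0.0790). LTBP2 belongs by name to the latent TGF-beta binding protein family, and whether it binds TGF-beta was not measured here. It stood at 2.66 to 3.53 TPM in CYST and 2.74 to 15.2 TPM in MAT (log2 difference 1.35, edgeR adjusted p = 0.270). Over the whole list the median log2 difference in MAT was 0.098.

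The extracellular binding proteins and antagonists had the lowest median of the 7 lists in MAT against CYST, -0.94 with the block, with 3 of 8 tested genes lower and none higher (background 10.6%). Beside FST these were FSTL1 (follistatin-like 1), which fell by 1.09 (SE 0.16, edgeR with the block, adjusted p = 0.0101), and DCN (decorin, a matrix proteoglycan that binds TGF-beta), which fell by 1.12 (SE 0.23, adjusted p = 0.0252). FSTL1 ranged from 144 to 345 TPM in CYST and 79.0 to 157 TPM in MAT, and DCN from 696 to 1932 and from 236 to 996 TPM. DCN is also 1 of the fibroblast markers, of which 8 of 9 tested had a negative log2 difference (median -0.77 with the block). The exception, VIM, rose by 1.05 (SE 0.16, edgeR with the block, adjusted p = 0.0125), and the part of stromal cells in the FSTL1 and DCN values was not tested. In MAT + COL, FSTL1 fell by 0.87 (SE 0.14, edgeR with the block, adjusted p = 0.0334). GREM1 (gremlin 1), a BMP antagonist, was at 5.19 to 13.1 TPM in CYST and 1.99 to 5.00 TPM in MAT, with a log2 difference of -1.32 that was not called (edgeR adjusted p = 0.145).

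None of the 16 SMAD transducers and regulators was called in any comparison, and their median log2 difference in MAT against CYST was 0.37 with the block. The smallest p-values were those of the SMAD corepressor SKIL (0.77, edgeR with the block, adjusted p = 0.0968), the SMAD phosphatase PPM1A (0.70, adjusted p = 0.211) and the ubiquitin ligase SMURF1 (1.04, adjusted p = 0.309). SMAD2 was measured at 58.4 to 108 TPM and SMAD3 at 9.63 to 39.2 TPM over the 9 libraries. RNA levels of the SMADs do not report their phosphorylation, which was not measured here.

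Genes commonly used as targets of TGF-beta and activin did not move together. Of 16 tested, 2 rose and 2 fell in MAT against CYST with the block (background 10.6%), around a median of 0.32. ANGPTL4, a secreted regulator of lipoprotein lipase, rose by 2.88 (SE 0.69, edgeR adjusted p = 0.0392), from 9.26, 8.71 and 57.3 TPM in CYST to 66.2, 245 and 127 TPM. JUNB, a subunit of the transcription factor AP-1, rose by 0.80 (SE 0.17, edgeR adjusted p = 0.0307). TAGLN (transgelin, an actin-binding protein of smooth muscle) fell by 1.57 (SE 0.20, edgeR adjusted p = 0.00719), from 66.1 to 106 TPM in CYST to 16.2 to 45.1 TPM, and CCN2 (connective tissue growth factor) fell by 1.14 (SE 0.26, edgeR adjusted p = 0.0359). The smooth muscle marker sum was lower in MAT as well (38.1 to 87.5 against 119 to 171 TPM). Of its 6 genes, 5 had a negative log2 difference and 1 a positive one, and MYH11 did not fall (mean 7.98 TPM in MAT, 7.74 in CYST). The part of smooth muscle cells in the TAGLN value was not tested. None of the 16 was called in MAT + COL against CYST, where TAGLN differed by -1.19 (edgeR with the block, adjusted p = 0.0649). Of the BMP arm, 1 of 15 tested genes was called in MAT against CYST with the block, a share below the 10.6% of all genes. This was ID3, a target of BMP signalling, which rose by 1.36 (SE 0.34, edgeR with the block, adjusted p = 0.0444). ID3 stood at 66.5, 119 and 59.7 TPM in CYST and 348, 254 and 94.7 TPM in MAT. BMP2 (1.01, edgeR with the block, adjusted p = 0.0893) and the receptor BMPR2 (0.50, adjusted p = 0.121) followed and were not called.

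**Figure D4:**
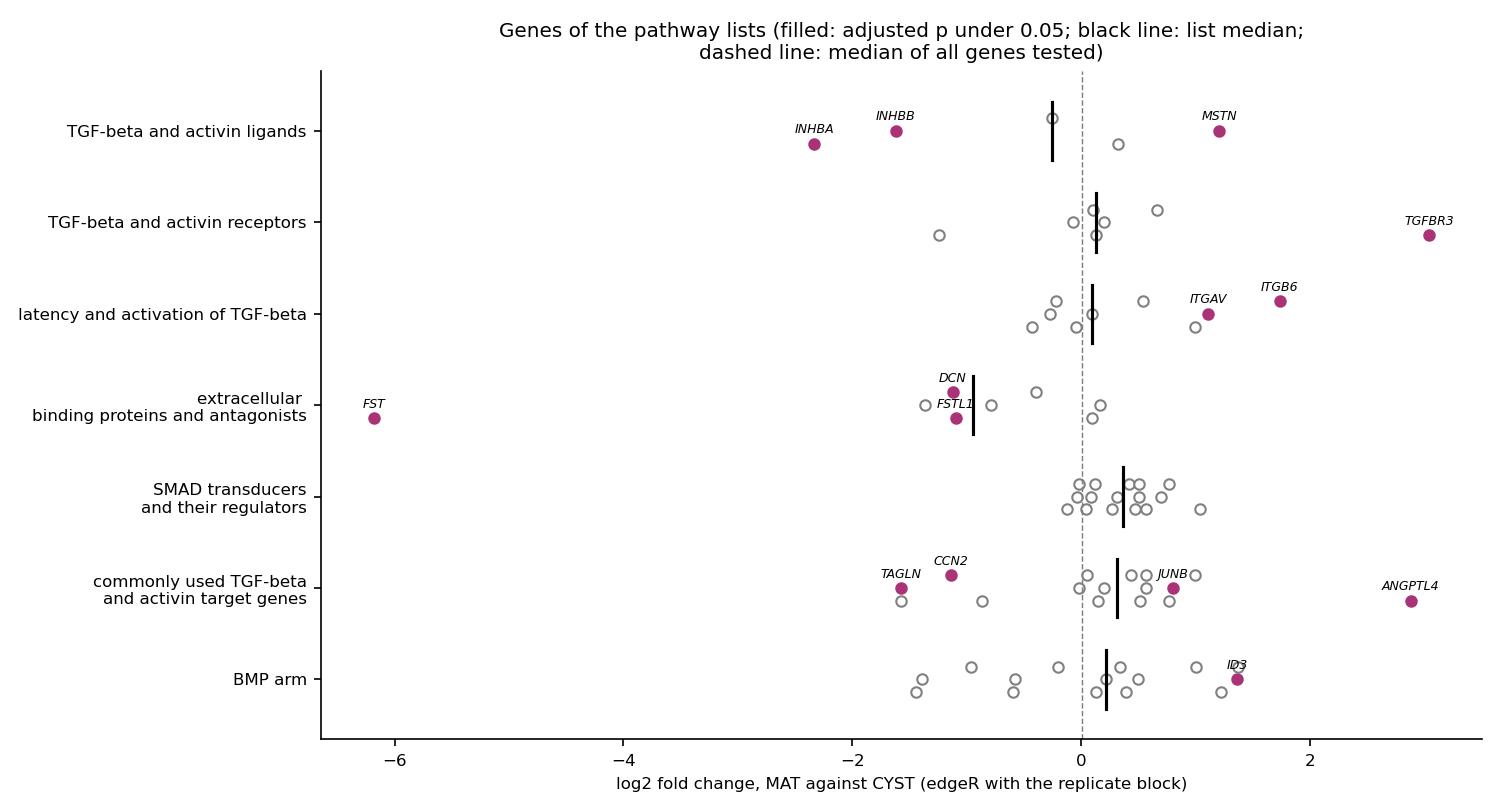
Log2 fold change in MAT against CYST (horizontal axis, edgeR with the replicate block) of each tested gene of the 7 pathway lists, members included; filled points have an adjusted p under 0.05, black lines are list medians and the dashed line is the median of all genes tested (0.0050). FST lies farthest below 0 at -6.18, TGFBR3 (3.05) and ANGPTL4 (2.88) lie farthest above it, and the 16 SMAD transducers and regulators have no filled point.

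For collagen I, no gene of the 7 lists was called by edgeR with or without the block, and with the block 618 of all genes (4.96%) had an unadjusted p under 0.05. Those of the lists were TGFB2, ITGAV (log2 difference -0.50), FSTL3 (-0.72), THBS1 (-0.42), BMP2 (-0.60), JUNB (-0.47), BHLHE40 (-0.27) and DCN (0.46). All had an adjusted p of 0.955.

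The profiles most like those of the 3 members with the highest TPM were described by Pearson correlation of log2 CPM across the 9 libraries, over 7452 genes with a mean of at least 10 TPM. The libraries of a group share its condition, so the values are a description. Nearest to INHBA were C17H4orf46 (r = 0.98), RPA2 (0.97), a subunit of the single-strand DNA-binding replication protein A, and ADSL (0.97), an enzyme of purine synthesis. RPA2 ranged from 93.4 to 188 TPM and ADSL from 99.9 to 250 TPM. TGFBR1 was nearest to SAR1B (0.94), GLE1 (0.93) and MINPP1 (0.93). TGFB2 had weaker neighbours, YES1 (0.86), ROCK1 (0.83) and KAT8 (0.82).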

How the data were processed

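RNA of 9 cultures was sequenced by the authors after SMART-Seq HT PLUS library preparation. After trimming, reads were mapped by the authors to ARS-UCD2.0 with the default settings of CLC Genomics Workbench. The authors deposited raw counts per gene and TPM values for 20679 genes. The annotation release and the strand setting are not given in the sources used here. Groups and replicate numbers follow the labels.

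edgeR 4.0.16 in R 4.3.3 was used on the counts, with filterByExpr (minimum count 10), TMM scaling and glmQLFTest on the 6 libraries of each of 3 comparisons. DESeq2 1.42.0 and limma 3.58.1 on log2(TPM + 1) were alternatives. The scripts were tested on simulated counts. The labels give the groups the same replicate numbers, and the methods name no pairing, although the study's text speaks of individuals for MAT and MAT + COL. Deviations from group means of same-numbered libraries correlated at 0.33 to 0.44 (MAT and CYST), 0.47 to 0.69 (MAT + COL and MAT) and 0.28 to 0.35 (MAT + COL and CYST). Between different numbers the values were -0.34 to -0.070, -0.52 to 0.086 and -0.35 to 0.11, which centring on 3 libraries lowers. The numbers were therefore taken to pair the libraries. Shares were compared by two-sided exact permutation tests, with Benjamini-Hochberg adjustment over 6 quantities per comparison, and every adjusted p was at least 0.6. Exact 95% intervals cover counting error only, as reads had no molecular identifiers.

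The members and gene lists were chosen with earlier results of these data known. Of each list, the genes named are those called in the fit without or with the block, and the 3 with the smallest p in a fit with fewer than 3 calls. ACVR1B, ACVR2B, SMAD2 and INHA, the smooth muscle marker MYH11 and the immune markers were named after their values were seen. TDGF1, CDKN2B and PIFO had no row. Sequences were not used here.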

Additional observations from a re-analysis of the deposited data

How the results depend on the processing

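The direction of INHBA, INHBB, FST and TGFBR3 against CYST was the same under every alternative run. Depth limits TGFB1, TGFB3 and FST with EGF, which rest on at most 35 reads per library. The replicate block raised the count of genes called from 216 to 1277 in MAT against CYST (DESeq2 1278, all 9 libraries in 1 fit 580) and from 186 to 658 in MAT + COL against CYST (DESeq2 1500, all 9 libraries 601). Members called rose from 2 to 4 with the block or DESeq2 in both, and were 1 and 0 under the criteria of the study (also an absolute log2 fold change over 1 and a minimal TPM over 1). The TPM criterion was read here as over 1 in each library. That reading excludes TGFBR3 (at most 0.92 TPM in CYST) and FST (at most 0.58 TPM with EGF). It gave 175 genes in MAT against CYST, from edgeR rather than the software of the study, so these are not the study's own calls. Listed genes called beyond the members went from 0 to 10 and 3 with the block, 6 and 5 with DESeq2, 1 and 1 with all 9 libraries, and 1 with limma in MAT + COL against CYST. The study criteria with the block, added after the data had been seen, gave 726 and 433 genes and 2 and 2 members. The block changed no other call of a member. Leaving out 1 library gave 5 to 267 genes, 0 to 2 members and 0 to 1 listed gene in MAT against CYST, and 3 to 186, 0 to 1 and 0 to 1 in MAT + COL against CYST. Leaving out a replicate number from the blocked fits, also added later, gave 36 to 1867 genes, 0 to 4 members and 0 to 12 listed genes, and 109 to 2406, 2 to 4 and 0 to 14, and 0 to 46 genes in MAT + COL against MAT, the highest without replicate 3. Small differences that were never called changed sign. For MAT + COL against CYST, TGFB2 became 0.027 with the block, 0.00430 without the filter, 0.028 with thinned counts, 0.012 with all 9 libraries and 0.085 with limma, and TGFB1 became 0.00156 with the block and 0.016 with limma. INHBB became 0.042 with limma in MAT + COL against MAT. When single libraries were left out, TGFBR1 ranged from -0.046 to 0.34 in MAT against CYST. In MAT + COL against MAT the ranges were -0.23 to 0.40 (TGFB1), -0.18 to 0.021 (TGFBR1), -0.083 to 0.67 (TGFBR2), -0.16 to 0.82 (TGFBR3), -0.50 to 0.70 (INHBA), -0.45 to 0.24 (INHBB) and -0.093 to 0.11 (SMAD7). They were -0.41 to 0.54 (TGFB1), -0.18 to 0.26 (TGFB2), -0.46 to 3.32 (TGFB3) and -0.12 to 0.23 (TGFBR1) in MAT + COL against CYST. On the log2(TPM + 1) scale of limma, which understates low genes, FST differed by -2.97 and -3.10. The cause of these changes was not tested.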
